A study of Mus musculus with 5 samples.

Results

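CD8 T cells that carried RNA of both PD-1 and the transcription factor TCF-1 (gene Tcf7) were described here in single mouse immune cells. They were chosen by a gate on unique molecular identifiers (UMIs, each standing for 1 captured transcript): at least 2 UMIs of the T cell receptor complex genes Cd3e, Cd3d and Cd3g together, at least 2 of Cd8a and Cd8b1 together, at least 1 of Pdcd1, at most 5 of the complement genes C1qa, C1qb and C1qc together, which macrophages express, and at least 1 of Tcf7. The gate was applied to the cells carrying hashtag 1, 4 or 7, and it held 51 cells, of 1068 that met all its terms but the Tcf7 term and of 21531 cells that passed quality filters. The other 1017 cells of the gate, with no Tcf7 UMI, served as the comparison.

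The cells came from 3 mice. Live CD45+ immune cells had been sorted from the tumour, the draining lymph node and a non-draining lymph node of each mouse, which makes 9 samples, and the samples were marked with hashtag antibodies and run as 1 pool on the 10x Genomics 5′ platform. Mouse 1 had received nivolumab_mIgG1_D265A, a PD-1 blocking antibody on a mouse IgG1 backbone with the Fc exchange D265A; mouse 2 nivolumab_mIgG1 without that exchange; and mouse 3 MOPC21, the isotype control. Every antibody is thus represented by 1 animal. The tumour model, the strain and the age of the mice are not given in the sources used here. No label ties a hashtag number to a mouse, site or antibody, so the cells are reported as populations 1, 4 and 7, after their hashtags, and neither sites nor antibodies were compared. The populations are not replicates of a known group, and no test was run between or over them. All intervals are 95% and exact (Clopper-Pearson for shares of cells, Poisson for levels, a conditional binomial for ratios). They cover counting error only, not the variation from cell to cell, so they are too narrow as statements about other cells or mice.

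The hashtags are short oligonucleotides read out with the cell's RNA, and they alone separate the 3 populations. Their barcode sequences follow, 5′ to 3′, for TotalSeq-C0301, TotalSeq-C0304 and TotalSeq-C0307 as the labels name them. The deposited table calls the tags TotalSeq-B.
Population 1: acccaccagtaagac
Population 4: aaagcattcttcacg
Population 7: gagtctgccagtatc

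PD-1 is an inhibitory receptor that CD8 T cells put on their surface after antigen contact and keep when antigen persists, as in tumours. TCF-1 is a DNA-binding factor of the Wnt pathway family that naive and memory T cells express, and that is lost as CD8 T cells become terminally differentiated killers. Among PD-1-bearing CD8 T cells, those that keep TCF-1, often with the surface receptor SLAMF6 (Ly108), are known as progenitor-exhausted or stem-like cells, which renew themselves and supply effector cells during PD-1 blockade.

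Of the 51 cells, 26 came from population 1, 18 from population 4 and 7 from population 7. They held 342990 gene UMIs in all, with a median of 6141 per cell (1866 to 16823) and 2242 genes per cell. Population medians were 6459, 5311 and 6979 UMIs. The table is a single pool with 1 barcode suffix and 0 repeated barcodes, so no cell was counted in 2 populations. Across the 9 hashtags 21273 cells were assigned, with 2056 to 2581 cells and medians of 3377 to 10660 UMIs per cell. Populations 1, 4 and 7 had the highest medians, 5683, 7198 and 10660 UMIs, and the other 6 ranged from 3377 to 3682. In the 51 cells a median of 98.3% of the top 2 hashtags' counts lay in the top one. The lowest values were 89.4 and 89.5%, in 2 of the 7 members of population 7. Scrublet, a doublet caller, marked 181 of all cells (0.841%) and none of the 51.

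The Tcf7 threshold was passed narrowly by most members. Of these, 36 cells held exactly 1 Tcf7 UMI, 8 held 2, 3 held 3, 2 held 4, and 1 cell each held 7 and 9. Just outside the threshold stood the 1017 cells with 0. The 15 cells with 2 or more UMIs fell 9, 3 and 3 into populations 1, 4 and 7, and both cells above 4 UMIs were in population 1. Pdcd1, which the gate also used, ranged from 1 to 12 UMIs per cell with a median of 3. Pdcd1 stood at 516 UMIs per 1000000 gene UMIs (CPM) in the members and at 568 CPM in Tcf7-negative cells of like depth.

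Tcf7-positive cells made up 4.36% of the PD-1 CD8 T cells of population 1 (26 of 596, interval 2.87 to 6.33%). In population 4 they made up 5.61% (18 of 321, 3.36 to 8.72%), and in population 7 they made up 4.64% (7 of 151, 1.88 to 9.32%). The 3 intervals overlap widely. Pooled, the share was 4.78% (3.58 to 6.23%) at a median depth of 6965.5 UMIs. Macrophages, which should not express Tcf7, were counted as a reference, and the source of their Tcf7 UMIs was not tested. Among CD3-negative cells with more than 20 C1q UMIs, 0.952, 1.74 and 2.41% had a Tcf7 UMI in populations 1, 4 and 7. Pooled, 1.94% did (44 of 2271), at a median depth of 16548 UMIs. When every cell was thinned to 3000 UMIs, which left out 77 PD-1 CD8 T cells, the pooled share was 3.13% (31 of 991, 2.14 to 4.41%) in the T cells and 0.403% (0.184 to 0.763%) in the macrophages. After thinning, populations 1, 4 and 7 stood at 2.36, 3.68 and 2.14% in the T cells, against 0.743, 0.441 and 0.521% in the macrophages. The pool and each population were thinned by separate single random draws. The populations' counts, 13, 11 and 3 T cells and 3, 3 and 6 macrophages, therefore do not add up to the pooled 31 and 9. The spread from draw to draw was not measured, and the intervals do not cover it. The intervals of the T cells and macrophages overlapped after thinning in populations 1 and 7 and were apart in population 4 and in the pool. The share moved with the requirement: with at least 2 Tcf7 UMIs it was 1.40% (15 of 1068).

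**Figure D1:**
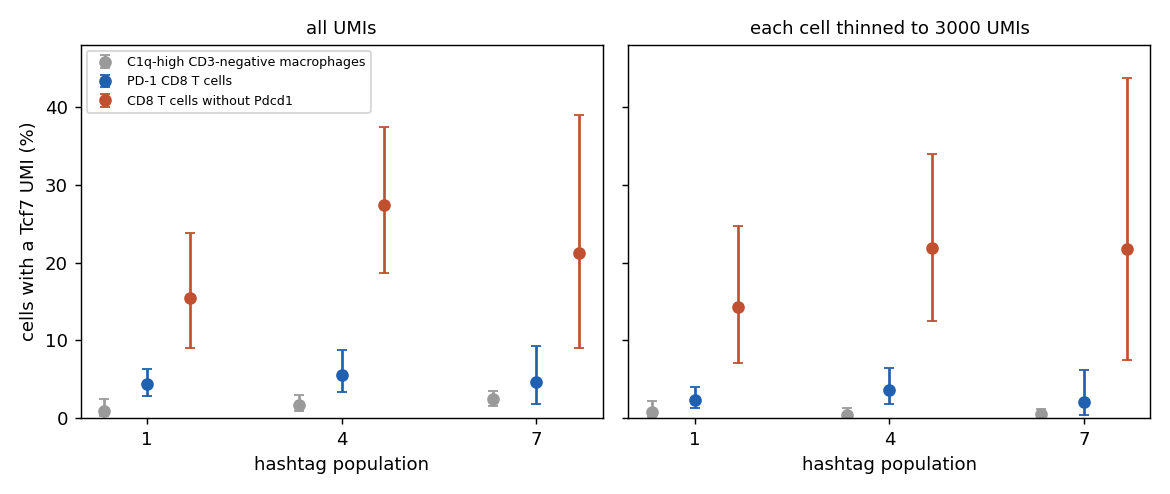
Share of cells with at least 1 Tcf7 UMI (%, y axis) in populations 1, 4 and 7 (x axis), with all UMIs at left and with every cell thinned to 3000 UMIs at right; points are PD-1 CD8 T cells, CD8 T cells without a Pdcd1 UMI and macrophages, and bars are exact 95% intervals. PD-1 CD8 T cells lie between 4.36 and 5.61% at left, below the CD8 T cells without Pdcd1 and, in the point values, above the macrophages of the same population.

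Tcf7 was more often seen in related CD8 T cells outside the gate. CD8 T cells of populations 1, 4 and 7 with no Pdcd1 UMI had Tcf7 in 15.4, 27.4 and 21.2% of cells (49 of 232 pooled, 21.1%, 16.1 to 26.9%), although their median depth, 4080 UMIs, was lower. PD-1 CD8 T cells carrying the other 6 hashtags were few, 81 in all, and 48 of them had a Tcf7 UMI (59.3%, 47.8 to 70.1%). In each of these 6 hashtags the share lay between 45.5 and 85.7%, on 6 to 25 cells. These shares were not compared by mouse or site.

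For the comparison at equal depth each member was set beside 3 Tcf7-negative PD-1 CD8 T cells of the same population and the nearest total UMI count, which gave 153 matched cells with a median of 6144 UMIs. A gene was measured where both sides together had at least 50 UMIs, and was called higher or lower where the ratio of CPM was at least 1.5 or at most its inverse and the interval left out 1. By this rule 177 of 4192 measured genes were higher in the members (4.22%) and 242 were lower (5.77%), so 419 genes (10%) were called. In 139 of the higher genes (3.32% of the measured ones) and 193 of the lower genes (4.6%) the direction was the same in all 3 populations. The median log2 ratio over all measured genes was −0.05. Dividing by that median changed the balance, to 214 higher and 194 lower genes.

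Slamf6, the surface marker of progenitor-exhausted cells, was the listed marker of these cells that the gate did not use. It stood at 72.8, 44.9 and 132 CPM in the members of populations 1, 4 and 7, against 16.8, 2.99 and 0 CPM in the matched cells. In population 7 a single member held 6 Slamf6 UMIs and 1 other held 1. The members were above the matched cells in each population, but on few transcripts: 25 UMIs in 11 of 51 members against 10 UMIs in 8 of 153 matched cells, below the minimum for a call. The ratio was 7.51 (3.48 to 17.5), and without population 1 it was 36.1, since 9 of the 10 matched UMIs lay there. Slamf6 was therefore not detected in 40 of the 51 cells at this depth. Cxcr5 and Sostdc1, further genes of the progenitor-exhausted list, had 0 UMIs on both sides. Id3, a transcriptional inhibitor kept in such cells, had 6 UMIs in 6 members and 1 UMI in the matched cells (ratio 18.0, 2.19 to 829). Only 3 of the 12 list genes were measured. Xcl1, a chemokine that attracts cross-presenting dendritic cells, was called higher (108 against 26.2 CPM, ratio 4.12, 2.44 to 7.03), while Traf1 and Cd200 were at ratios of 1.14 and 1.14 and not called. Xcl1 came from few cells, 8 members and 6 matched cells, and differed by population: 19 against 3 UMIs in population 1, 2 against 24 in population 4 and 16 against 0 in population 7. Its call did not hold without population 1, 4 or 7, at ratios of 2.26, 35.0 and 2.34, where fewer than 50 UMIs remained over both sides. Against all 1017 Tcf7-negative cells, unmatched, the Xcl1 ratio turned to 0.81, and its call was lost in 11 others of the 19 alternatives.

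Some of the genes that keep T cells circulating through lymph nodes and at rest were higher. Of the 10 measured genes of 15 on the list of naive and memory homing and quiescence, 4 were higher (Ccr7, Klf2, Bach2 and Lef1), 1 was lower (Foxo1, a factor upstream of several of them, 0.61) and 5 were neither, with a median log2 ratio of 0.48 beside −0.05 for all genes. The summed list differed little, at a ratio of 1.12 (1.06 to 1.18). In the 36 members with exactly 1 Tcf7 UMI 2 of 9 measured genes were higher and the median was 0.10. Among cells with no Cd4 and no C1q UMI 2 were higher and 2 lower, with a median of 0.15.

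Ccr7, the receptor that guides T cells into lymph nodes, had the highest ratio of the genes called higher that went the same way in each population. Its level was 616, 386 and 734 CPM in the members of populations 1, 4 and 7 and 35.4, 26.9 and 43.9 CPM in the matched cells. Every population of members was above every population of matched cells. The pooled ratio was 16.5 (11.5 to 24.4), with a Ccr7 UMI in 25 of 51 members and 15 of 153 matched cells. A single member held 37 of the 192 UMIs, and another held 27 of the 43 UMIs of population 4. Ccr7 (ENSMUSG00000037944, chr11:99144196-99155077, minus strand, GRCm38) stayed between 7.69 and 29.1 in the 19 other ways of choosing, matching or scaling the cells that were tried, and was called in each.

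Klf2, a factor that maintains the receptors for leaving tissue, stood at 134, 180 and 452 CPM in the members and 41.0, 98.5 and 100.4 CPM in the matched cells of populations 1, 4 and 7. The members were above the matched cells of their own population each time, with a pooled ratio of 2.88 (2.03 to 4.07). Klf2 was not called in the members with exactly 1 Tcf7 UMI. Bach2, a repressor that restrains effector differentiation, was at 236 against 115 CPM (2.05, 1.52 to 2.74). Among cells with no Cd4 and no C1q UMI Bach2 was at 1.11 and not called. Lef1, the relative of TCF-1, was at 75.8 against 44.6 CPM (1.70, 1.01 to 2.81). The Lef1 call was fragile: in the members with exactly 1 Tcf7 UMI its ratio was 0.97, and without populations 1 and 4 in turn it was 1.58 and 1.72 and not called.

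The next 4 list genes had too few UMIs for a call, and they are named here after their values were seen. Klf3 had 21 UMIs against 3, Dapl1 15 against 3, S1pr1, the receptor for exit from lymph nodes, 11 against 3, and Igfbp4 11 against 2. Il7r, the interleukin-7 receptor of long-lived T cells, was measured and not called (1.29, 0.985 to 1.67).

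**Figure D2:**
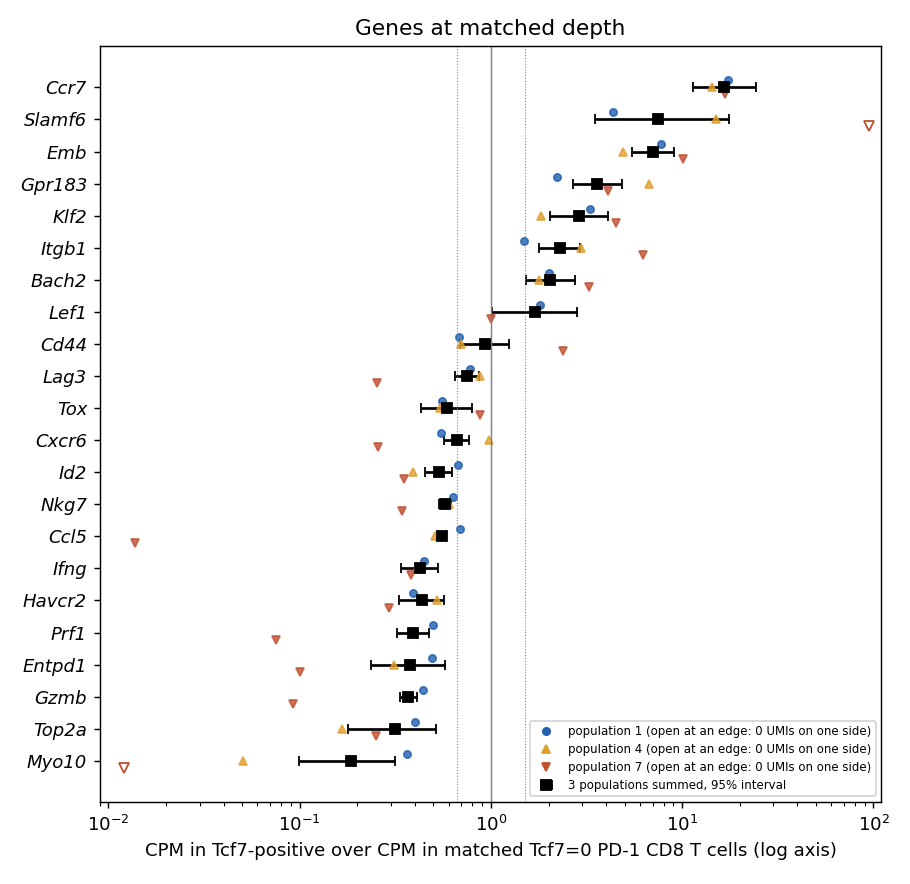
Ratio of CPM in Tcf7-positive over matched Tcf7-negative PD-1 CD8 T cells (x axis, log scale) for 22 genes (y axis); squares are the 3 populations summed with exact 95% intervals, coloured points single populations, and open points at an edge have 0 UMIs on one side. Ccr7 and Emb lie at 16.5 and 7.02 with every population above 1, and Gzmb and Prf1 at 0.37 and 0.39 with every population below 1.

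Outside the lists the 12 highest called genes with the same direction in each population were led, after Ccr7, by Emb. Emb encodes embigin, an adhesion and transporter-associated membrane protein. It stood at 694, 485 and 697 CPM in the members of populations 1, 4 and 7 against 89.5, 98.5 and 69.0 CPM in the matched cells, and all 3 members' values exceeded all 3 matched values. The Emb ratio was 7.02 (5.48 to 9.07), and Emb was seen in 35 of 51 members and 43 of 153 matched cells. Gpr183, the oxysterol receptor EBI2 that positions lymphocytes in lymphoid tissue, stood at 224, 440.3 and 358 CPM against 101, 65.7 and 87.9 CPM. The Gpr183 ratio was 3.61 (2.70 to 4.82), with a UMI in 35 members and 41 matched cells. Itgb1, the integrin beta 1 chain, was at 344 against 150.4 CPM (2.29, 1.79 to 2.92), and Evl, an actin regulator, at 210 against 96.1 CPM (2.19, 1.59 to 2.99). Without population 1 the Gpr183 and Itgb1 ratios widened to 5.68 and 3.71. Ccr7, Emb, Gpr183, Itgb1 and Evl were the 5 of 25 named higher genes called under all 19 alternatives.

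The other genes among the 12 highest had ratios between 2.51 and 3.96. Slfn5, an interferon-inducible Schlafen gene, was at 3.96 (2.20 to 7.23), Igfbp7 at 3.81, Thada at 2.92, Tnfsf11, the cytokine RANKL, at 2.90, Irf2bp2 at 2.78, Sugct at 2.58, Arl4c at 2.56 and the unnamed transcript Gm26740 at 2.51. Slfn5, Igfbp7 and Sugct rested on 24 to 33 member UMIs and were not called when any 1 population was left out. Tnfsf11 was at 1.44 without population 1 and at 6.67 without population 4, and called in neither. Thada (2.63), Irf2bp2 (2.08) and Arl4c (2.35) lost their calls without population 1, Irf2bp2 also without population 4 (3.75), and 1 member held 12 of the 33 Igfbp7 UMIs.

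TCF-1 and LEF1 bind a core of 6 bases, CTTTGA, or TCAAAG on the other strand, and the 250 bases before the gene start in RefSeq (GRCm38.p6) were searched for it on both strands. The motif was in 20 of 133 higher genes with a sequence (15.0%), in 21 of 191 lower genes (11.0%), in 404 of 3277 measured genes (12.3%) and in 4280 of 27025 genes overall (15.8%). Among the 12 highest named genes 11 had a sequence and 3 held the motif: Emb, Slfn5 and Thada. A match says only that these letters occur. The 3 windows are shown, 5′ to 3′ in the direction of the gene with the motif in capitals, because they belong to named higher genes: Emb at chr13:117220323-117220572 (plus strand), Slfn5 at chr11:82951852-82952101 (plus strand) and Thada at chr17:84466209-84466458 (minus strand). The Emb window lies inside the gene's span in GENCODE vM21, chr13:117208536-117274415.
Emb: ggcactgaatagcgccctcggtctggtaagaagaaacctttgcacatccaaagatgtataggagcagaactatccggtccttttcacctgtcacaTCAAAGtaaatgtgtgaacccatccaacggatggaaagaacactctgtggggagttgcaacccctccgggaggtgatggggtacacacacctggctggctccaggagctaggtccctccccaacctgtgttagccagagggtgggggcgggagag
Slfn5: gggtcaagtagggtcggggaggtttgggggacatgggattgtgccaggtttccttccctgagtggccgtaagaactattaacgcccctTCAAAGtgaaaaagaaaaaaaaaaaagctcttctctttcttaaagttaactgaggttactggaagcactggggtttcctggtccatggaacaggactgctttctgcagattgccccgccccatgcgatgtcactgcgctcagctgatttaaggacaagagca
Thada: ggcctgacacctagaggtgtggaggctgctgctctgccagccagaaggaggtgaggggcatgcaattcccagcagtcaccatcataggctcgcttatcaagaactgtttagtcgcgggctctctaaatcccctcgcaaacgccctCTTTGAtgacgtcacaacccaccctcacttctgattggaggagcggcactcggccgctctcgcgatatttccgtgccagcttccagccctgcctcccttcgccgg

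Several genes of killing were lower in the members. Of the 17 genes of cytotoxic granules and death ligands 16 were measured: none was higher, 7 were lower and 9 were neither, with a median log2 ratio of −0.56. In the 36 members with exactly 1 Tcf7 UMI 3 were higher and 3 lower (median −0.31), and with at least 1 Cd44 UMI 2 were higher and 4 lower (−0.37). With at least 2 Tcf7 UMIs none of 14 measured genes was higher and 9 were lower (−1.55). Gzmb, the protease granzyme B, stood at 1489, 1312 and 245 CPM in the members of populations 1, 4 and 7 and at 3394, 3599.9 and 2661 CPM in the matched cells. All 3 members' values lay below all 3 matched values. The Gzmb ratio was 0.37 (0.334 to 0.410), with a UMI in 25 of 51 members and 137 of 153 matched cells. Prf1, the pore-forming perforin, stood at 437, 359 and 75.3 CPM against 875, 910.4 and 998 CPM. The Prf1 ratio was 0.39 (0.323 to 0.475). Nkg7, a granule membrane protein, was at 2630 against 4576 CPM (0.57, 0.535 to 0.617) and was present in 48 of 51 members.

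The other lower granzymes came from few cells and 1 or 2 populations, so their ratios describe those cells. Gzmc (0.32) had 245 of its 332 matched UMIs in population 7, was at 0.76 and not called without that population, and was at 2.50 against the 1 nearest matched cell each. Gzma had 218 of 223 member UMIs and 994 of 1123 matched UMIs in population 4. Gzmf had 160 of 207 member UMIs there, and a single member held 135 of them. In population 7 Gzmf went the other way, on 43 member and 13 matched UMIs (9.93, 5.24 to 20.1). Gzmc was above 1 in population 1, on 9 member and 17 matched UMIs (1.59, 0.624 to 3.77).

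Secreted products were lower too: of 9 measured cytokine and chemokine genes 7 were lower and none higher (median log2 −0.86). Ifng, the cytokine interferon gamma, stood at 252, 297 and 245 CPM in the members of populations 1, 4 and 7 against 561, 719 and 640.1 CPM in the matched cells. The Ifng ratio was 0.42 (0.337 to 0.530), with every population of members below every population of matched cells. Ccl5, a chemokine of effector and memory CD8 T cells, was at 5047 against 9143 CPM (0.55, 0.524 to 0.581). In population 7 the contrast was far wider, 75.3 against 5484 CPM, on 4 UMIs in the members. Ccl3 was at 685 against 1314 CPM (0.52), with 126 of the 235 member UMIs in 1 cell. Its ratio turned to 1.16 in cells with a Cd44 UMI. Spp1, which encodes osteopontin, was at 20.4 against 147 CPM (0.14), with 5 of its 7 member UMIs in 1 cell, and at 0.44 and not called without population 1 and 0.051 without population 4. Ccl3 was at 0.33 without population 1. Ccl1 was at 0.15 on 3 member UMIs, and at 0.75 and not called without population 4. Il2 and Csf2 had 0 UMIs on both sides.

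Among inhibitory receptors, which dampen T cell activation, 2 of 8 measured genes were lower and none was higher (median log2 −0.38). Havcr2, which encodes TIM-3, the marker of terminally exhausted cells, stood at 151, 288 and 94.2 CPM in the members of populations 1, 4 and 7 against 386, 549 and 320.0 CPM in the matched cells. The members were below the matched cells in each population, with a pooled ratio of 0.44 (0.329 to 0.567) and a UMI in 20 of 51 against 116 of 153 cells. Entpd1, which encodes the ectonucleotidase CD39, was at 70.0 against 186 CPM (0.38, 0.235 to 0.576), and at 0.24 without population 1. Lag3 (0.75, 0.648 to 0.861), Ctla4 (0.72, 0.610 to 0.854) and Tigit (0.79, 0.654 to 0.949) were within the 1.5-fold limit. Lag3 came to 0.665 without population 4 and was then called lower.

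Of 16 measured transcription factors of exhaustion and effector fate, 6 were lower and none was higher (median log2 −0.26). Prdm1, encoding BLIMP-1, which drives terminal differentiation, was at 20.4 against 62.1 CPM (0.33, 0.127 to 0.717) on 7 member UMIs, and was not called without population 1 or 4. Irf8 was at 120 against 311 CPM (0.38, 0.270 to 0.532), and Id2, an inhibitor that favours effector cells, at 542 against 1017 CPM (0.53, 0.454 to 0.624). Nr4a2 (0.56), Ikzf3 (0.57) and Tox, the factor that installs the exhaustion programme, were also lower. The Tox level was 202, 62.9 and 169 CPM in the members of populations 1, 4 and 7 against 362, 116 and 195 CPM in the matched cells (0.59, 0.431 to 0.799). Tox differed more between populations than between members and matched cells within population 7. Tbx21, encoding T-bet, was at 0.95 and not called.

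Most surface molecules of tissue residence and activation were not called. Of 12 measured chemokine receptor and adhesion genes 1 was higher (Itgb1), 2 were lower and 9 were neither. With a minimum of 20 UMIs 3 of 14 were higher and 2 lower. Itgae, an integrin of residence in epithelia, and the chemokine receptor Cxcr4 had too few UMIs for a call and are named after their values were seen. Itgae had 13 UMIs in 4 members against 10 in 4 matched cells (3.91, 1.58 to 9.95), and Cxcr4 13 in 9 against 8 in 8 (4.88, 1.88 to 13.6). Cxcr6, the receptor that holds CD8 T cells in tumours, was at 470.3, 961.5 and 207 CPM in the members of populations 1, 4 and 7 against 861, 979 and 803 CPM in the matched cells. Population 4 showed almost no difference, and the pooled ratio of 0.66 (0.565 to 0.771) sat at the limit for a call and passed it in 7 of the 19 alternatives. Without populations 1 and 7 in turn it was 0.78 and 0.73. Itga1, the other lower gene, was at 0.61, with population 7 at 1.80, and not called without population 1 (0.63) or 4 (0.69). Cd44, the receptor of antigen-experienced cells, was at 184 against 198 CPM (0.93, 0.688 to 1.24), with a UMI in 27 of 51 members and 88 of 153 matched cells. The populations differed in direction, at Cd44 ratios of 0.68, 0.69 and 2.38 in populations 1, 4 and 7. In population 7 the interval was 1.32 to 4.26, on 23 member and 29 matched UMIs. Of the 23, 7 and 6 lay in the 2 members with the least clear hashtags, at 89.5 and 89.4% of the top 2 hashtags' counts. The member with 6 also held 2 Cd4 UMIs. Of 9 measured costimulatory receptors 2 were lower, Tnfrsf4 (OX40, 0.44) and Tnfrsf9 (4-1BB, 0.52), and none was higher. Of 11 cytokine receptors 1 was higher, Il18r1 (1.59), and 3 were lower, Il21r (0.54), Il2ra (0.58) and Il18rap (0.63). Il2ra turned to 1.00 against the 1 nearest matched cell each, and was 0.77 without population 1 and 0.67 without population 7. Without population 1 Il18r1 was at 1.504 and not called, and Il18rap was not called without population 1 (0.68) or 4 (0.65).

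Several genes of division had fewer UMIs in the members, while the share of cells with any such UMI was not lower throughout. A UMI of the 12 G2 and M genes was in 54.9% of members and 44.6% of the 1017 Tcf7-negative cells. In members with 2 or more Tcf7 UMIs and their matched cells the shares were 46.7 and 60%. With 1 Tcf7 UMI they were 58.3 and 41.7%. For the 12 S phase genes the shares were 94.1% of members and 84.4% of the 1017 cells. Of 6 measured genes of G2 and M phase 5 were lower and none was higher, with a median log2 ratio of −1.48. Top2a, the topoisomerase of dividing cells, was at 49.6 against 158 CPM (0.31, 0.178 to 0.517), and Mki67, the proliferation marker, at 37.9 against 98.0 CPM (0.39, 0.199 to 0.692). Top2a was present in 12 of 51 members and 43 of 153 matched cells, and Mki67 in 7 and 25. Without population 1 they were at 0.18 and 0.32, and Mki67 was not called. Ube2c was at 0.25, with 177 matched UMIs from 15 cells, and at 0.45 without population 1. Cdk1 (0.33) rested on 5 member UMIs and was not called when any 1 population was left out. The G2 and M list kept a median at or below −1.22 without each population in turn. Of 8 measured S phase genes 2 were lower, Rrm2 (0.30) and Dut (0.59). Neither was called without population 1 (0.064 and 0.56), nor Rrm2 without population 4 (0.64).

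Glycolysis genes, which active effector cells raise, had a ratio below 1 in all 11 measured members of their list: 5 were lower and 6 neither (median log2 −0.55). Eno1 was at 834 against 1352 CPM (0.62, 0.541 to 0.701), Gapdh at 3277 against 5042 CPM (0.65, 0.609 to 0.693), Tpi1 at 224 against 424 CPM (0.53) and Slc2a1, the glucose transporter GLUT1, at 58.3 against 99.9 CPM (0.58). Without population 7 2 of the 11 were lower, with Eno1 at 0.67 and Gapdh at 0.68, and Slc2a1 lost its call without any 1 population (0.54 to 0.63). Among cells with at least 1 Cd44 UMI 0 of the 11 were called lower, and the median was −0.30. The ribosomal protein genes stood on the other side, each of 16 above 1 in ratio and none past 1.5-fold (median log2 0.33). Rps19 had the highest of these ratios, 1.47 (1.34 to 1.61), and 1.52 without population 7.

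Of 12 interferon response genes 5 were higher and none lower (median log2 0.27): Ifit3 (2.65), Usp18 (1.70), Ifit1 (1.63), Mx1 (1.63) and Irf7 (1.53). These genes are switched on in most cell types by type I interferon. Population 1 held most of the UMIs behind these calls, but not the widest ratios of each gene: Irf7 was at 1.29, 2.59 and 0.79 in populations 1, 4 and 7, and Ifit1 at 1.48, 2.46 and 2.00. The summed list was at 1.09, 1.21 and 0.868. Ifit3 was at 538, 126 and 18.8 CPM in the members of populations 1, 4 and 7 and at 186, 65.7 and 25.1 CPM in the matched cells, so population 7 went the other way. Without population 1 the list kept 6 measured genes, of which 1 was higher and 1 lower, with a median of −0.03, and Ifit3, at 1.74, was not called. Ifit1, at 2.36 and 1.501 without populations 1 and 4, Mx1, at 1.504, and Usp18, at 1.72 without population 1, were then not called. None of its genes was called among cells with no Cd4 and no C1q UMI. Of 12 genes of T cell receptor signalling 1 was higher (Ptpn11, 1.89, not called without any 1 population, 1.70 to 2.11) and 2 lower, Themis (0.50, 0.383 to 0.653) and Ptpn6 (0.57). None of 8 measured immediate early and heat shock genes, which respond to handling of tissue, was called, though 1 to 2 were called lower when a population was left out.

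The 12 lowest called genes that went the same way in each population had ratios between 0.12 and 0.31. Besides Spp1, Top2a, Rrm2 and the cyclin Ccna2 (0.17), they were Gas2 (0.12), Myo10 (0.18), Srgap3 (0.21), Wsb2 (0.23), Nhp2 (0.23), Hmgn5 (0.29), 2310031A07Rik (0.29) and Racgap1 (0.30), a gene of cell cleavage. Myo10, an unconventional myosin of cell protrusions, had 12, 2 and 0 UMIs in the members of populations 1, 4 and 7 and 99, 119 and 10 UMIs in their 3 times as many matched cells. It was lower in each population, seen in 8 of 51 members and 60 of 153 matched cells, with a ratio of 0.18 (0.099 to 0.316). Without population 1 this ratio was 0.047 and without population 4 it was 0.33, and both were called, but against the 1 nearest matched cell each it was not. Apart from Top2a, the others rested on 2 to 11 member UMIs. Gas2, Hmgn5 and Wsb2 were not called when any 1 population was left out (0.086 to 0.15, 0.16 to 0.46 and 0.13 to 0.30), nor Ccna2, Racgap1 and Srgap3 without populations 1 and 4 in turn (0.091 and 0.39, 0.36 and 0.29, 0.205 and 0.28), nor Nhp2 and 2310031A07Rik without population 1 (0.18 and 0.396).

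**Figure D3:**
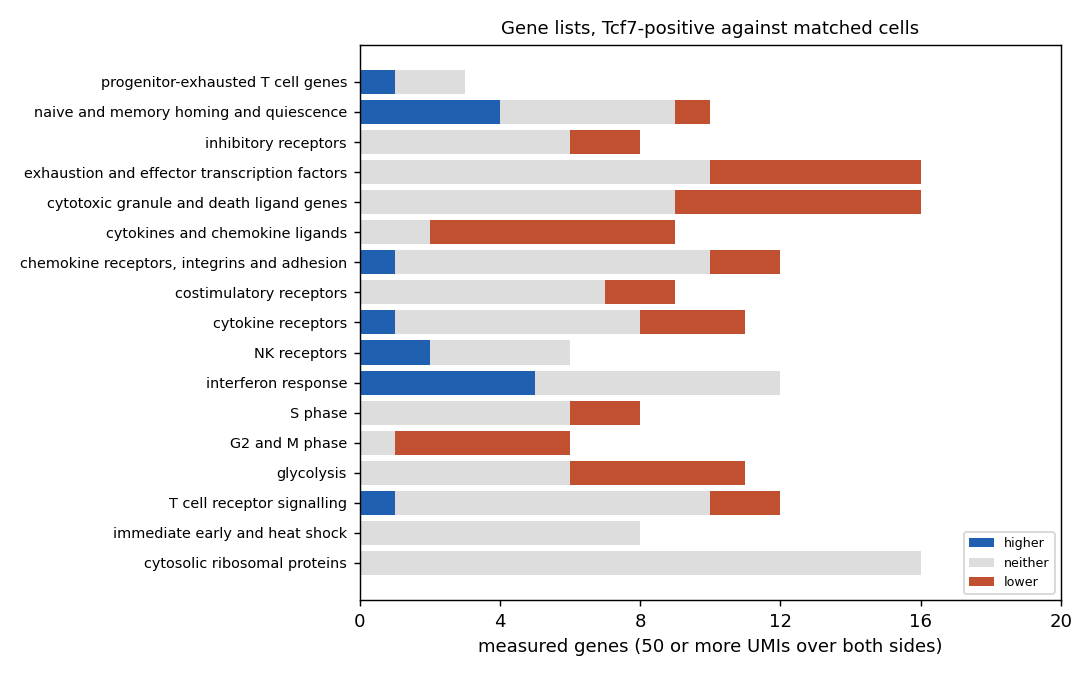
Number of measured genes (x axis) of each of the 17 gene lists (y axis) that were higher, lower or neither in Tcf7-positive against matched PD-1 CD8 T cells by the 1.5-fold rule. The homing and interferon lists hold 4 and 5 higher genes, and the cytotoxic, cytokine, G2 and M and glycolysis lists hold 5 to 7 lower genes and no higher one.

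Markers of other cells were counted in the members beside these results. The Treg factor Foxp3, the CD4 T cell gene Cd40lg, the NK cell genes Ncr1, Klrb1c and Klra8 and all markers of neutrophils, mast cells and erythroid cells were at 0. Other markers of these and further classes were present. The 3 Treg markers together had 73 UMIs in 29 members, all of Ikzf2 and Il2ra, and 259 in 80 matched cells. The 4 NK markers had 9 UMIs in 3 members and 23 in 17 matched cells. All 9 member UMIs were of Eomes, which is also on the list of exhaustion and effector transcription factors. The 4 monocyte markers had 1135 UMIs in 48 members and 3910 in 131 matched cells. In the members Hp had 0 of these UMIs and Chil3 had 1, and the rest were of Ly6c2 and Lyz2. Plasma cell markers had 12 UMIs in 11 members, all of Xbp1, and 63 in 47 matched cells. Dendritic cell markers had 2 in 2 and 1 in 1. Cd4 had a UMI in 2 members, both in population 7, and in 4 matched cells. C1q UMIs, allowed up to 5, were in 20 of 51 members and 80 of 153 matched cells. The 3 B cell markers Cd79a, Cd79b and Ms4a1 together had 14 UMIs in 9 members (40.8 CPM) and 13 UMIs in 11 matched cells (12.6 CPM). All 5 macrophage markers were detected, at a summed 168, 89.9 and 508 CPM in the members of populations 1, 4 and 7 against 136, 170.1 and 119 CPM in the matched cells. Among NK receptor genes 2 of 6 measured were called higher, Tyrobp (2.18) and Fcer1g (1.75), which macrophages also express. Both followed the macrophage markers in population 7: 15 of 21 Tyrobp UMIs and 22 of 39 Fcer1g UMIs of the members lay there, 15 and 18 of them in a single cell each. Without population 7 the ratios were 0.69 and 0.80. Apoe, itself 1 of the 5 macrophage markers, was at 3.00 with 16 of 29 member UMIs in population 7. A single member held 10 of them, and the Apoe ratios were 2.50, 0.82 and 8.00 in populations 1, 4 and 7. The part of macrophage RNA in the Tyrobp, Fcer1g and Apoe ratios was not tested. Among cells with no Cd4 and no C1q UMI, Ccr7 stood at 10.95 and Gzmb at 0.44.

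The 51 cells were not uniform, and the differences were wider in cells with more Tcf7 UMIs. Median depth was 6996 UMIs in the 15 cells with 2 or more Tcf7 UMIs, 5585.5 in the 36 cells with 1, and 6983 in all 1017 cells with none. Ccr7 had a UMI in 80, 36.1 and 9.73% of cells in these 3 classes. Slamf6 was in 40, 13.9 and 4.92%, and Lef1 in 60, 22.2 and 20.3%. Gzmb went the other way, in 26.7, 58.3 and 84.9% of cells, as did Prf1 in 20, 52.8 and 80.2%, Havcr2 in 20, 47.2 and 75.7% and Cxcr6 in 46.7, 75 and 92.5%. Cd44, with the populations pooled, was close to level across the classes, at 53.3, 52.8 and 59.2%. In CPM, Gzmb stood at 777, 1467 and 3460.4, and Ccr7 at 830.3, 427 and 46.1. The cells with 1 UMI lay between the others for each of these genes except Cd44, and Lef1 in cells with 1 UMI was close to its share in cells with none.

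**Figure D4:**
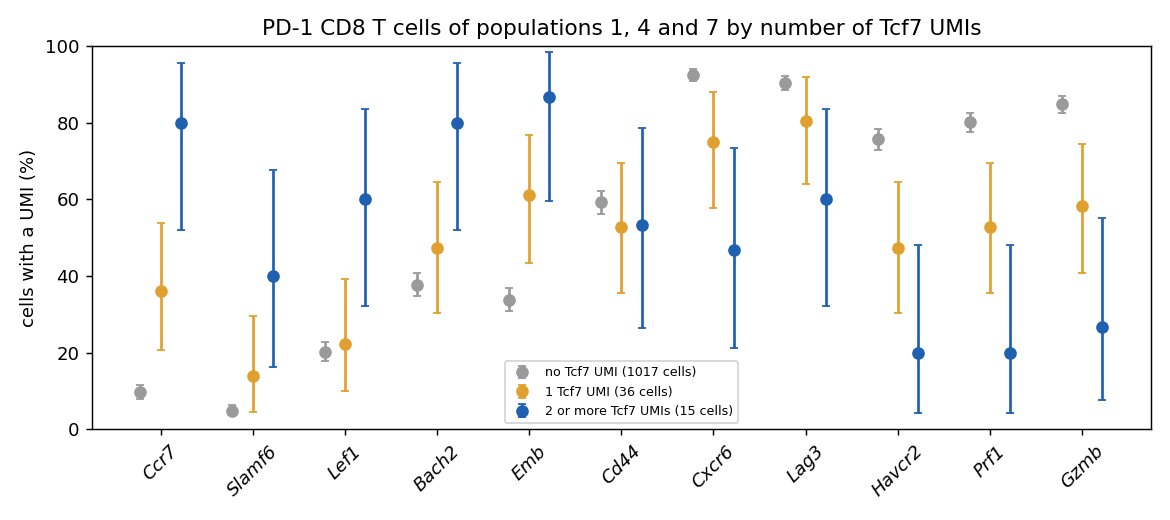
Share of cells with a UMI (%, y axis) for 11 genes (x axis) in PD-1 CD8 T cells of populations 1, 4 and 7 with 0, 1 or at least 2 Tcf7 UMIs (1017, 36 and 15 cells); bars are exact 95% intervals. Ccr7 goes from 9.73 to 36.1 to 80% and Gzmb from 84.9 to 58.3 to 26.7%.

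Single cells showed how far the 2 programmes shared cells. Ccr7 and Gzmb were each seen in 25 of the 51 cells, in 9 of them together, in 16 each alone, and in 10 neither was seen. Slamf6 and Gzmb, in 11 and 25 cells, were never seen in the same cell. Slamf6 and Ccr7 were together in 8 of the 11 Slamf6-positive cells. Of the 15 cells with 2 or more Tcf7 UMIs, 12 held Ccr7 and 4 held Gzmb. Ccr7 was found with Cd44 in 16 of 25 cells and with Cxcr6 in 15 of 25. These are counts of detection, and a gene not seen in a cell of this depth may still be expressed there.

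**Figure D5:**
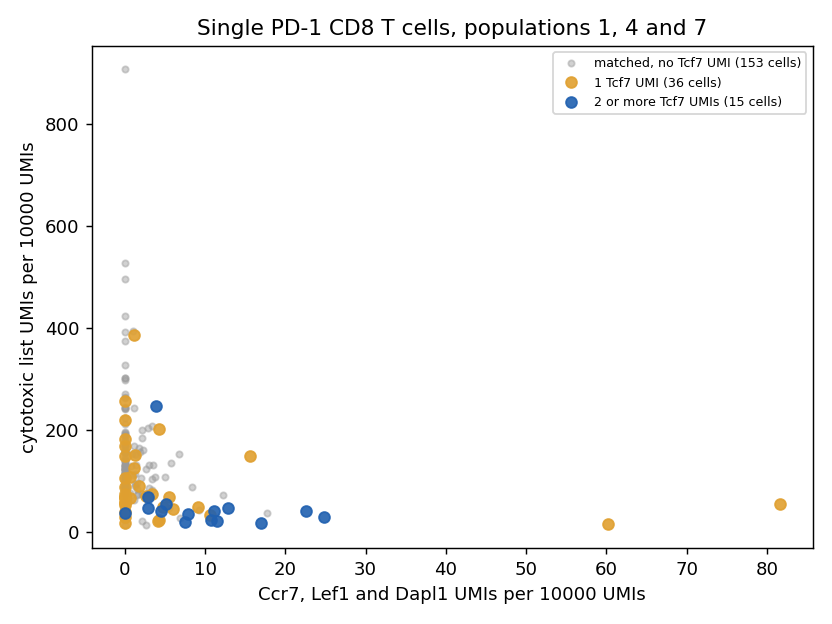
Each point is 1 PD-1 CD8 T cell of population 1, 4 or 7: UMIs of Ccr7, Lef1 and Dapl1 per 10000 UMIs (x axis) against UMIs of the cytotoxic list per 10000 UMIs (y axis), for the 15 members with 2 or more Tcf7 UMIs, the 36 with 1 and the 153 matched cells with none. Median values of these 3 genes are 7.86, 0.619 and 0, and median cytotoxic values 40.7, 69.7 and 120.03; the 2 members above 60 on the x axis carry 1 Tcf7 UMI.

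The same quantities in those classes showed the spread. The summed UMIs of Ccr7, Lef1 and Dapl1 per 10000 UMIs had a median of 7.86 in cells with 2 or more Tcf7 UMIs (0 to 24.8), 0.619 in cells with 1 (0 to 81.6) and 0 in matched cells (0 to 17.7). They were absent in 1 of 15, 17 of 36 and 107 of 153 cells. The cytotoxic list had medians of 40.7, 69.7 and 120.03 per 10000 UMIs, with ranges of 18.4 to 246, 16.3 to 386 and 13.3 to 908. The members' range lay inside that of the matched cells, so no cytotoxic level separated the members from the matched cells.

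Tcf7-positive cells outside the gate give a frame for these levels, at depths that differ. In the 48 PD-1 CD8 T cells with Tcf7 of the other 6 hashtags (median 7140.5 UMIs), Gzmb was in 3 cells (19.4 CPM), Ccr7 in 44 (620.2 CPM), Lef1 in 41 (321 CPM), Havcr2 in 9 and Cxcr6 in 6 (14.1 CPM). Their Pdcd1 level was 132 CPM against 516 CPM in the 51 members. In the members Gzmb was in 25 cells (1239 CPM), Lef1 in 17 (75.8 CPM) and Cxcr6 in 34 (589 CPM). In the 49 Tcf7-positive CD8 T cells of populations 1, 4 and 7 with no Pdcd1 UMI (median 4273 UMIs), Gzmb was in 13 cells (176 CPM), Prf1 in 6, Klf2 in 34 (726 CPM) and Emb in 42 (786 CPM). Emb and Gpr183 were at 627 and 315 CPM in the members and at 285 and 89.9 CPM in the Tcf7-positive PD-1 cells of the other hashtags. The difference between these classes was not tested.

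Across 991 PD-1 CD8 T cells thinned to 3000 UMIs, the genes most like Tcf7 among 4107 were Emb (Spearman's rho 0.21), Gpr183 (0.15), Itgb1 (0.15), Gm26740 (0.14), Evl (0.13) and Klf2 (0.13). The most unlike were Nkg7 (−0.17), Gzmb (−0.16), Tmsb4x (−0.15), Havcr2 (−0.14), Id2 (−0.13) and Prf1 (−0.13). All are weak, in sparse counts from cells of 3 populations, and are given as a description only.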

How the data were processed

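The authors deposited raw counts of UMIs per gene and cell, whole numbers with no normalization, made on the mm10-1.2.0 reference; the submitters' processing notes name Cell Ranger 8.0.1. The treatment of intron reads is not stated in the sources. The table holds 21624 barcodes and 27998 genes; T cell receptor segment and constant genes were not used here. Cells with at least 200 genes and at most 20% mitochondrial counts were kept. A cell took the hashtag whose count was at least 3 times the next. Members and gene lists (17 lists, 227 genes, 226 found; Cd244a was not) were chosen with earlier results of these data known.

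Each member was matched to 3 Tcf7-negative cells without replacement. Named genes are the 12 highest and 12 lowest called genes with 1 direction in the 3 populations, up to 4 measured genes per list with the largest log2 ratio, the markers, and the 6 genes most and least like Tcf7 among genes in at least 10% of cells. Genes named beyond this complete a count or were chosen after their values were seen. Values of 2 further genes of the lists and markers are not reported here. Symbols were matched by gene ID to GENCODE vM21. The scripts used Python 3.11.15, numpy 2.4.6, scipy 1.17.1, pandas 2.3.3, scanpy 1.11.5 (Scrublet, expected doublets 8%; 1 matched cell was called) and matplotlib 3.10.9, and were tested on simulated data. No test over samples was possible because the hashtags are not tied to groups.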

Additional observations from a re-analysis of the deposited data

How the results depend on the processing

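No paired analysis was possible because the result comes from no test and the labels give no replicate numbers to the hashtag populations. The 177 higher and 242 lower genes became 87 and 151 with the 1 nearest matched cell, 110 and 157 with at least 1 Cd44 UMI, 63 and 105 at a 2-fold limit, 397 and 510 with the mean of the populations' log2 ratios, and 64 and 127 with cells thinned to 3000 UMIs. Higher genes numbered 388 against all Tcf7-negative cells, 98 with at least 2 Tcf7 UMIs, 101 with no Cd4 and no C1q UMI, 275 at a minimum of 20 UMIs and 412 with no minimum. With exactly 1 Tcf7 UMI, a setting chosen after seeing the data, 109 were higher and 144 lower. Leaving out 1 population gave 99 to 138 higher and 173 to 207 lower genes, the lowest higher count without population 1. Of the 177 higher genes 46 to 110 were called again in these runs, and of the 242 lower genes 101 to 167. The share of 4.78% became 1.40% with at least 2 Tcf7 UMIs, 3.13% when thinned to 3000 and 2.26% when thinned to 1500 UMIs. Each thinned share comes from a single random draw.

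Of the named genes, 20 of 25 higher and 38 of 42 lower ones kept their direction in all 19 settings. Gene ratios crossed 1 for Xcl1 (0.81 unmatched), Lef1 (0.97 with exactly 1 Tcf7 UMI), Gzmc (2.50 with 1 nearest cell, 1.44 without the highest cells), Ccl3 (1.16 with Cd44), Il2ra (1.00 with 1 nearest cell), Ifit1 (0.84 with no Cd4 and no C1q UMI) and Cdk1 (1.13 thinned). Tyrobp came to 0.60 with no Cd4 and no C1q UMI, 0.62 with a hashtag count 10 times the next, 0.69 to 3.61 without 1 population in turn (lowest without population 7), 0.86 without the highest cells and 0.60 with exactly 1 Tcf7 UMI. Fcer1g came to 0.31, 0.69, 0.80 to 3.09 and 0.86 in the same settings, apart from leaving out the highest cells. The causes were not tested. Most lost calls came in settings with fewer cells and so fewer UMIs. The main rule, applied to these 51 cells, called no gene under 50 UMIs over both sides.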
